A study of Mus musculus with 6 samples.

Results

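Rab proteins are small GTPases that mark membrane compartments. Bound to GTP they recruit effectors that move, tether and fuse vesicles, exchange factors (GEFs) load them with GTP, GTPase-activating proteins (GAPs) switch them off, and a lipid tail added by a geranylgeranyl transferase holds them on membrane. The osteoclast, the multinucleated bone-resorbing cell of the monocyte lineage, depends on such traffic because its ruffled border forms when late endosomes and lysosomes fuse with the membrane facing bone. *Rab7*, *Rab3d* and *Rab38* were therefore looked at first.

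The rows were taken from the table of all genes by symbol: Rab, a number, and optional letters with at most 1 closing digit. This gave 71 of 23204 genes. Of these, 59 encode Rab GTPases. The pattern also took 10 genes of Rab partners (such as *Rab11fip1*, an effector of RAB11) and the antisense RNAs *Rab10os* and *Rab26os*, and these are described apart. A level of 1 CPM (the count scaled to library size) in 3 or more libraries was reached by 66 rows, 54 of them GTPase genes.

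Osteoclasts were grown from C57BL/6 bone marrow, first in M-CSF and then with RANKL and M-CSF, and RNA from 6 libraries was sequenced. The 3 wild-type libraries (numbered 1, 4 and 6 by their column names) were compared with 3 libraries labelled Tet2Rank–/–; Tet3aRank+/– (2, 3 and 5), called mutant here, which is read as loss of both *Tet2* alleles and of 1 *Tet3* allele; TET2 and TET3 oxidise methylated cytosine in DNA. The labels explain neither Rank nor the a, give no age and name no animal. They list 1 female and 2 male samples per genotype. The column names do not tie these to columns and sex-linked genes were not examined, so sex was not a term. The spread that p-values measure is between libraries and may be technical. All CPM are scaled by TMM (a correction for library composition).

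Total counts lay between 8794973 and 14267135 per library. *Tet2* counts were 615, 1045 and 989 in wild-type and 831, 447 and 702 in mutant libraries. As CPM these were 71.7, 80.9 and 79.3 against 58.2, 45.5 and 52.3, without overlap between genotypes. The log2 fold change was -0.57 (edgeR adjusted p = 0.0924 with genotype only), and *Tet3* was not lower (0.23, edgeR adjusted p = 0.360). Columns of libraries 5 and 6 carry a second number in their names, and this split is the naming batch below. Either side of it holds both genotypes. With this batch as a term, the edgeR adjusted p was 0.0400 for *Tet2* and 0.302 for *Tet3*. The 12 osteoclast markers checked were all detected, and their summed level was 15354 to 40178 CPM in wild-type and 3025 to 12576.5 CPM in mutant libraries. That of 12 macrophage markers was 5969 to 7516 against 9157 to 9809 CPM. Summed dendritic cell markers reached 708 to 1749.9 against 1420.2 to 5227 CPM and stromal markers 953 to 2669.99 against 800.7 to 3626 CPM, both highest in libraries 5 and 6. In bulk RNA, fewer osteoclasts and less RNA per osteoclast cannot be told apart, and the part of cell makeup in the Rab values below was not tested.

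The osteoclast libraries expressed a broad set of Rab genes, led by those of constitutive traffic. *Rab7* was highest per length, at 218 CPM per kb of exon ± 46.8 in wild-type and 207 ± 46.8 in mutant libraries (SD, n = 3 each). It was followed by *Rab5c*, a GTPase of early endosome fusion, at 103 ± 9.36 and 129.96 ± 2.21 CPM per kb. *Rab1a* and *Rab1b*, which act between the endoplasmic reticulum (ER) and the Golgi, stood at 99.5 ± 12.5 and 84.4 ± 4.73 CPM per kb in wild type, and *Rab8b*, which acts in transport to the cell surface, at 52.8 ± 20.7 and, in the mutant, 85.1 ± 15.2. *Rab8b* ranked 5 over the 6 libraries and in the mutant but 8 in wild type, behind *Rab31*, *Rab2a* and *Rab10*. *Rab7* lay above *Rab5c* in all 6 libraries. *Rab5c* overlapped *Rab1a* in wild type but not in the mutant, and *Rab1a* overlapped *Rab1b* in the mutant but not in wild type. The 5 genes together held 41.4% to 47.3% of the length-scaled Rab signal of a library, and the summed level of the 59 GTPase genes was 4107 to 4765 CPM in wild-type and 4399 to 4815 CPM in mutant libraries.

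**Figure D1:**
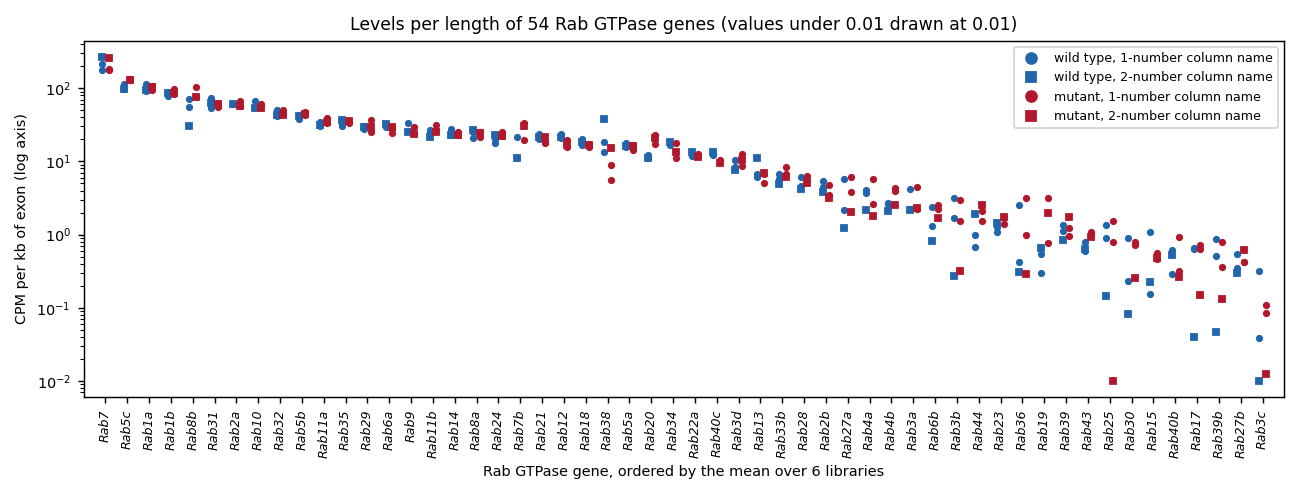
CPM per kb of exon (log axis) of the 54 Rab GTPase genes above the minimum, 1 point per library, ordered by the mean over 6 libraries; colour gives the genotype and squares mark libraries 5 and 6. *Rab7* sits alone at the top, and the points of a gene spread apart mainly at the low end, where libraries 5 and 6 lie below the others for several genes.

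The comparison between genotypes asks which Rab transcripts differ in osteoclasts labelled as lacking *Tet2* and 1 copy of *Tet3*. Most differed little. Of the 54 GTPase genes, 43 lay within 0.5 log2 units of no difference, 32 were above 0 and 22 below, and the median log2 fold change was 0.05 (quartiles -0.09 and 0.29). Over all 14040 genes tested the median was -0.03, and 27.8% lay more than 0.5 log2 units from 0. In the quasi-likelihood test of edgeR with genotype only, 0 of the 66 rows had an adjusted p under 0.05, where 0.0712% of all genes did. An unadjusted p under 0.05 was reached by 10 rows (15.2%), below the 19.6% of all genes. Libraries of the genotypes did not overlap for 12 rows (18.2%), below the 26.8% of all genes. Neither share was above that of the whole table.

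With the naming batch as a term, 4 rows passed in edgeR (6.06%, against 8.68% of all genes): *Rab38* and *Rab11fip1* fell, and *Rab20* and *Rab3il1* rose. DESeq2, without that term, called 6 of 59 rows with an adjusted p (10.2%, against 11.3% of all genes): *Rab11fip1*, *Rab20* and *Rab3il1* in the same directions, and *Rab5c*, *Rab7b* and *Rab11fip5* higher.

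**Figure D2:**
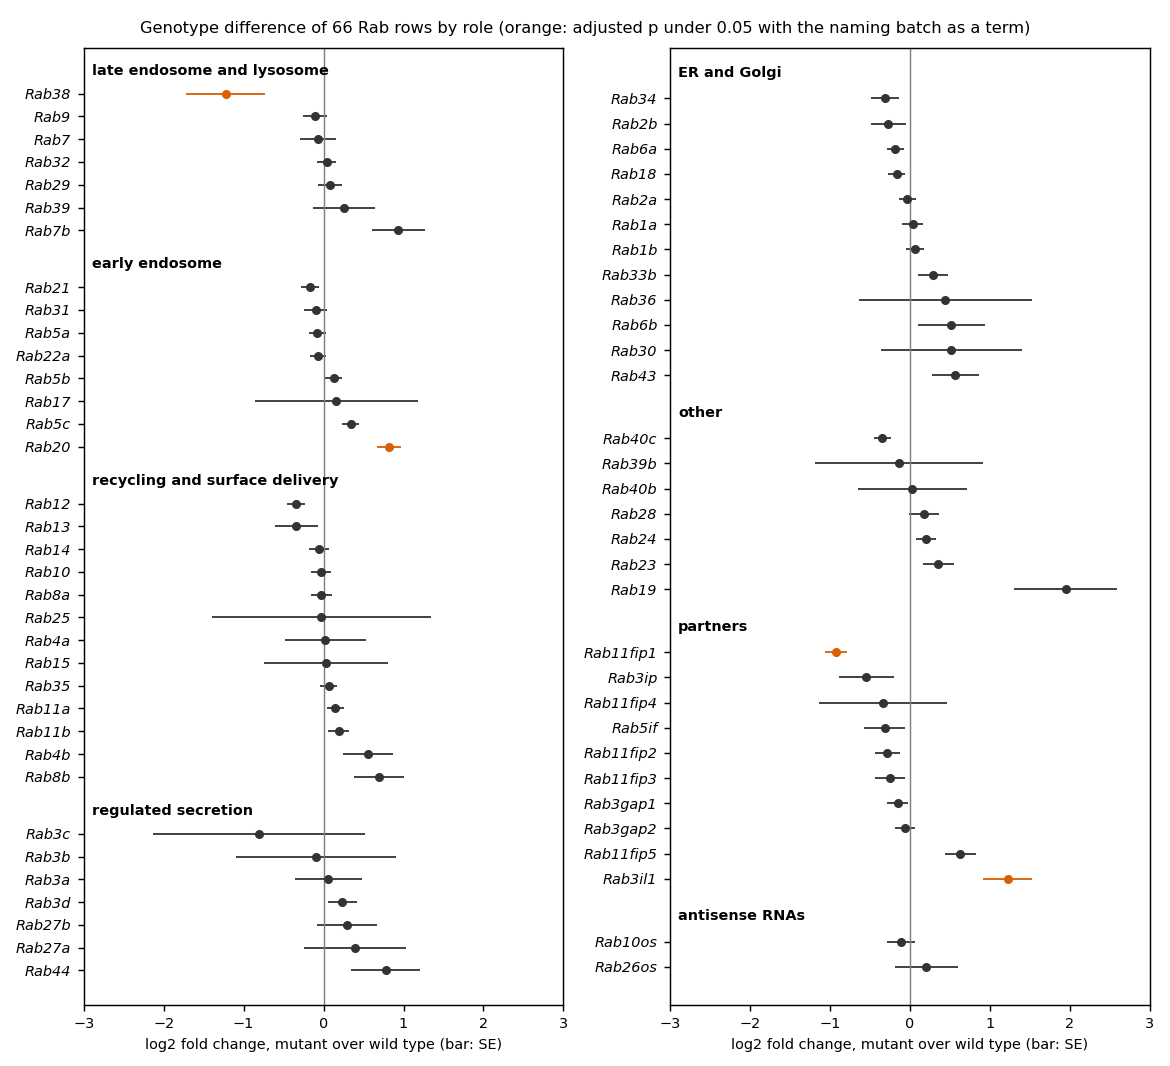
Log2 fold change of mutant over wild-type libraries with its standard error for the 66 rows, grouped by the role of the gene product; orange marks the 4 rows with an adjusted p under 0.05 once the naming batch is a term. Most points of every group lie within 0.5 of 0, and *Rab38* (-1.23) and *Rab19* (1.95) are the ends of the range. *Rab19* passed the minimum only through the mutant libraries.

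Among the GTPases of late endosomes and lysosomes, *Rab38* was lower in the mutant while *Rab7* was level. *Rab38* (chromosome 7, 88430273 to 88491572, mm10), which with its relative *Rab32* serves lysosome-related organelles such as melanosomes, had raw counts of 249, 277 and 736 in wild-type libraries 1, 4 and 6 and of 124, 139 and 322 in mutant libraries 2, 3 and 5. These are 29.0, 21.4 and 59.0 CPM against 8.68, 14.2 and 24.0 CPM. Library 6 was the highest and library 2 the lowest, and mutant library 5 lay above wild-type library 4, so the genotypes overlapped. The means were 36.5 CPM ± 19.9 (SD, n = 3) in wild type and 15.6 CPM ± 7.74 (SD, n = 3) in the mutant. The log2 fold change was -1.23 (SE 0.496 and adjusted p = 0.243 in edgeR), and the fit that includes the naming batch gave -1.20 (edgeR adjusted p = 0.0256). Within libraries 1 to 4 it was -1.14, and between libraries 5 and 6 it was -1.28. Without library 6 the value was -0.67, and DESeq2 gave an adjusted p of 0.107.

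The levels of *Rab38* were set beside those of the osteoclast genes *Ctsk*, *Acp5* and *Nfatc1* by library. *Ctsk*, which encodes cathepsin K, stood at 5743, 4638 and 12109 CPM in libraries 1, 4 and 6. In libraries 2, 3 and 5 it stood at 855, 2019 and 3295 CPM. The same libraries were highest and lowest, but library 5 lay below library 4 for *Ctsk* and above it for *Rab38*. Per 1000 counts of *Ctsk*, *Rab38* had 5.06, 4.62 and 4.87 counts in wild type against 10.2, 7.02 and 7.27 in the mutant. Per 1000 counts of *Acp5*, which encodes tartrate-resistant acid phosphatase, it had 7.11, 6.33 and 6.71 against 12.1, 7.77 and 8.64. Relative to either gene *Rab38* was thus higher in each mutant library than in each wild-type library. The log2 fold changes of *Ctsk* and *Acp5* were -1.87 and -1.61, further below 0 than the -1.23 of *Rab38*. Per 1000 counts of the transcription factor gene *Nfatc1* the genotypes overlapped, at 38.4, 29.5 and 46.2 against 60.2, 41.9 and 66.5. These ratios were formed after the values were seen and have no test.

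*Rab7* (chromosome 6, 87999106 to 88045270), whose product drives late endosome and lysosome fusion and is needed for the ruffled border, stood at 551, 456 and 698 CPM in wild-type and 465, 473 and 681 CPM in mutant libraries. Libraries 5 and 6 were the highest, 1 of each genotype, and the genotypes overlapped throughout. The log2 fold change was -0.07, with a 95% interval of -0.62 to 0.47 (edgeR adjusted p = 0.935). *Rab32* stood at 117, 97.0 and 101 against 118, 105 and 101 CPM, a log2 fold change of 0.04 (95% interval -0.24 to 0.33), and *Rab9*, of transport from late endosomes to the Golgi, at 58.0, 45.8 and 43.7 against 52.0, 42.8 and 41.6 CPM (-0.11, -0.48 to 0.25). These intervals leave out a doubling or a halving for *Rab7*, *Rab32* and *Rab9* alike. The same group held *Rab7b*, a relative of *Rab7* that links endosomes and the Golgi. It stood at 101, 51.9 and 50.7 CPM in wild-type and at 156, 90.3 and 142 CPM in mutant libraries (named after its values were seen). Mutant library 3 lay below wild-type library 1. The log2 fold change was 0.93 (SE 0.335 and adjusted p = 0.196 in edgeR, 0.121 by the fit with batch), and it passed in DESeq2 (adjusted p = 0.0399). *Rab29* and *Rab39* had log2 fold changes of 0.08 and 0.25.

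**Figure D3:**
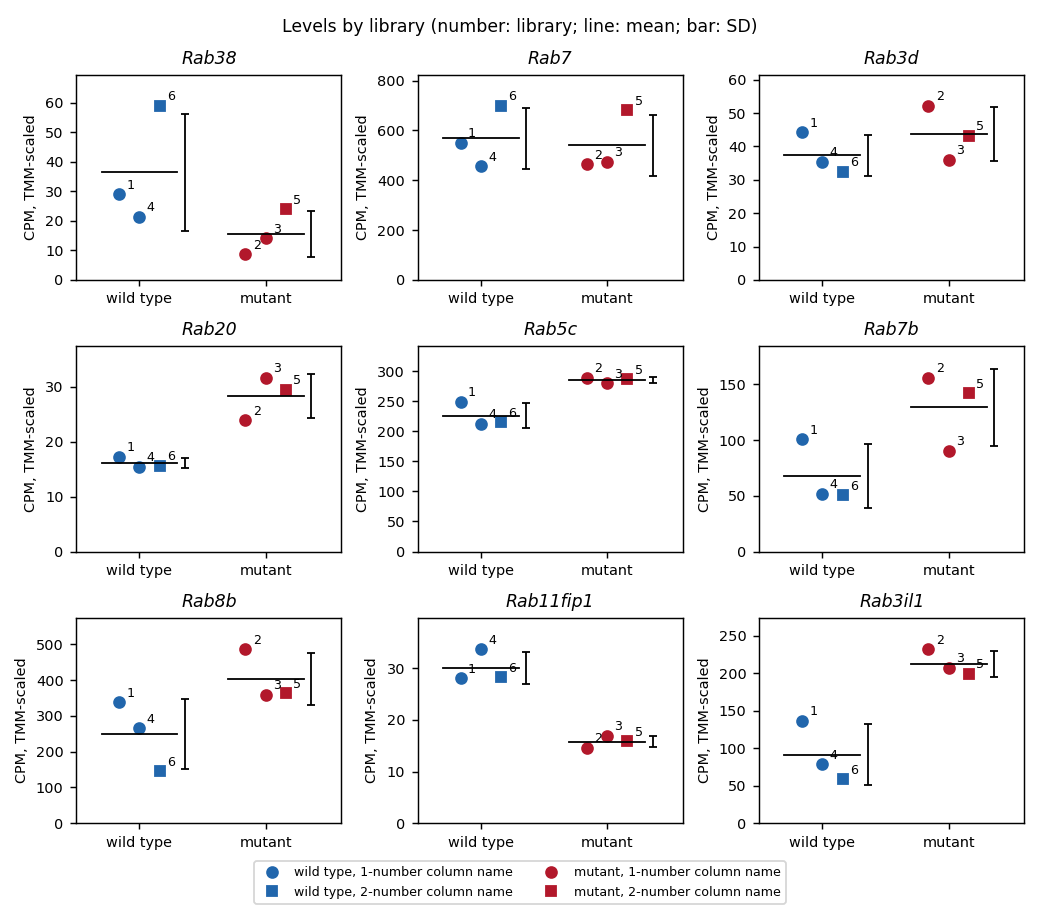
TMM-scaled CPM of 9 Rab rows by library (numbers), with the mean as a line and the SD as a bar; squares mark libraries 5 and 6. *Rab11fip1*, *Rab3il1*, *Rab20*, *Rab8b* and *Rab5c* have no overlap between genotypes, while *Rab38* and *Rab7b* overlap by 1 pair of libraries and *Rab7* and *Rab3d* by more.

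Related genes of this set differed from each other within libraries, a comparison that scaling cannot move. The log2 ratio of *Rab38* to *Rab32* was -2.01, -2.18 and -0.78 in wild-type and -3.77, -2.89 and -2.07 in mutant libraries, with library 5 above library 4. That of *Rab7b* to *Rab7* was -2.45, -3.14 and -3.78 against -1.58, -2.39 and -2.26, with no overlap between genotypes. The ratio of *Rab8b* to *Rab8a* was 1.52, 1.45 and 0.23 against 2.04, 1.85 and 1.66, again with no overlap. The ratio of *Rab5c* to *Rab5a* was 1.39, 1.37 and 1.35 against 1.71, 1.90 and 1.75, also with no overlap. The pairs *Rab11b* and *Rab11a*, and *Rab27a* and *Rab27b*, overlapped. Pairs were chosen with the values known, so the ratios are a description.

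**Figure D4:**
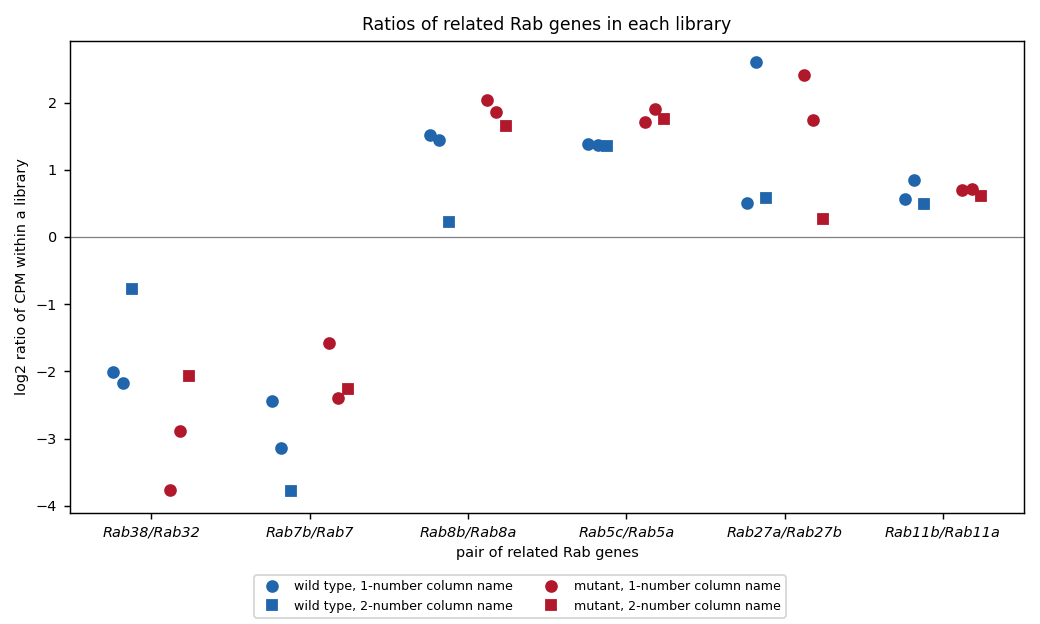
Log2 ratio of CPM between related Rab genes within each library, wild type in blue and mutant in red, squares for libraries 5 and 6. The ratios of *Rab7b* to *Rab7*, *Rab8b* to *Rab8a* and *Rab5c* to *Rab5a* are higher in every mutant library than in every wild-type library, and those of *Rab38* to *Rab32*, *Rab27a* to *Rab27b* and *Rab11b* to *Rab11a* overlap.

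Early endosome GTPases were mostly level apart from *Rab20* and *Rab5c*. *Rab20* (chromosome 8, 11453518 to 11478710), which acts in the maturation of phagosomes and endosomes in macrophages, stood at 17.3, 15.5 and 15.6 CPM in wild-type and at 23.9, 31.7 and 29.5 CPM in mutant libraries. The genotypes did not overlap, and wild-type libraries lay close together. The log2 fold change was 0.81 (SE 0.148 and adjusted p = 0.0777 in edgeR), with an adjusted p of 0.0316 in edgeR once the naming batch was a term and of 0.00149 in DESeq2. Libraries 1 to 4 alone gave 0.77 and library 5 over 6 gave 0.89, and the value stayed between 0.73 and 0.96 when each library was left out in turn. *Rab5c* (chromosome 11, 100715009 to 100738215) stood at 249, 212 and 215 against 289, 279.8 and 286 CPM, with no overlap. Its log2 fold change was 0.34 (SE 0.110 and adjusted p = 0.167 in edgeR, and 0.0149 in DESeq2). *Rab5b* lay 0.13 higher on the log2 scale without overlap (edgeR adjusted p = 0.592). *Rab5a*, *Rab21*, *Rab22a* and *Rab31*, all of early endosomes, lay between -0.17 and -0.07, and *Rab17* reached at most 1.43 CPM. Of the 8 genes of this group, 3 were higher without overlap and 0 lower, where 9.91% of all genes were higher and 16.9% lower in that way.

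Among the GTPases of recycling and surface delivery, *Rab8b* had the highest log2 fold change. It stood at 339, 266 and 145 CPM in wild-type and at 486, 359 and 363 CPM in mutant libraries, a log2 fold change of 0.69 (SE 0.315 and adjusted p = 0.298 in edgeR, 0.0849 by the fit with batch). The genotypes did not overlap, but wild-type library 6 was far below libraries 1 and 4, and without it the value was 0.43. *Rab12*, which routes transferrin receptor to lysosomes, stood at 71.5, 63.6 and 65.2 against 59.0, 47.9 and 50.6 CPM, a log2 fold change of -0.35 (SE 0.114 and adjusted p = 0.168 in edgeR). *Rab11a*, the main GTPase of recycling endosomes, stood at 105, 92.3 and 93.3 against 118, 101 and 102 CPM (0.15, 95% interval -0.12 to 0.41). *Rab10*, *Rab14*, *Rab8a* and *Rab35*, abundant members of this group, lay between -0.05 and 0.06.

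In the group of regulated secretion 0 of 7 genes passed in any fit run, where 8.68% of all genes passed with the batch term and 11.3% in DESeq2. Beside these shares, 0 of 7 does not set the group apart. *Rab3d* (chromosome 9, 21907491 to 21918192), which acts in secretory vesicle transport and is known from osteoclasts, stood at 44.2, 35.5 and 32.5 CPM in wild-type and at 52.2, 36.1 and 43.2 CPM in mutant libraries. The genotypes overlapped, and the log2 fold change was 0.23 (95% interval -0.20 to 0.67, edgeR adjusted p = 0.568). It was 0.12 without library 2 and 0.37 without library 1. It was by far the highest *Rab3* gene, since *Rab3a*, *Rab3b* and *Rab3c* had mean levels of 2.98 CPM per kb or less against 8.91 and 10.4 CPM per kb for *Rab3d*. *Rab44*, a large Rab with further domains, stood at 5.02, 3.41 and 9.70 against 7.84, 10.6 and 12.7 CPM, a log2 fold change of 0.78 (SE 0.432 and adjusted p = 0.399 in edgeR). It was 1.32 without library 6 and 0.51 without library 4. Like *Rab44*, the summed level of 10 neutrophil and mast cell markers was lowest in libraries 4, 1 and 2, which hold both genotypes. It was 236, 204 and 731 CPM in libraries 1, 4 and 6 and 353, 439 and 1114 CPM in libraries 2, 3 and 5. The part of these markers in *Rab44* was not tested.

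Several low-level Rab genes instead separated the libraries by naming batch. *Rab3b*, a Rab of endocrine and neuronal secretory vesicles, stood at 10.995 and 10.3 CPM in libraries 4 and 2, at 5.95 and 5.40 CPM in libraries 1 and 3, and at 0.962 and 1.12 CPM in libraries 6 and 5. *Rab36*, a Golgi Rab, stood at 15.8 and 19.7 CPM in libraries 4 and 2, at 2.57 and 6.11 CPM in libraries 1 and 3, and at 1.92 and 1.79 CPM in libraries 6 and 5. *Rab27a*, which docks secretory granules, had 22.5 and 23.9 CPM in libraries 4 and 2, 8.28 and 14.98 CPM in libraries 1 and 3, and 4.81 and 7.96 CPM in libraries 6 and 5. In each of these, libraries 4 and 2, which are of different genotypes, were the highest. In all, 11 of the 66 rows (16.7%) had both library 5 and library 6 below the other 4, where 14.6% of all genes did. Libraries 2 and 4 were the highest for 8 of the 11, which were the 3 above and *Rab3c*, *Rab25*, *Rab39b*, *Rab4a* and *Rab11fip4*. The others were *Rab4b*, *Rab10* and *Rab17*. *Rab3c*, *Rab17*, *Rab25* and *Rab39b* passed the minimum only through libraries 1 to 4, so the minimum in part fixed their pattern and the count supports nothing. The opposite order, libraries 5 and 6 above the other 4, was seen for 5 rows, including *Rab7* and *Rab35*, where 9.33% of all genes had it.

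Pituitary markers were also highest in libraries 4 and 2 and lowest in libraries 5 and 6. Among the rows low in libraries 5 and 6, *Rab10*, *Rab4b* and *Rab17* did not share the peak in libraries 4 and 2. The summed level of 10 such markers, led by the growth hormone gene *Gh*, was 17025 and 13639.6 CPM in libraries 4 and 2, 6533 CPM in library 3, 2694 CPM in library 1, and 0.521 and 0.481 CPM in libraries 5 and 6. In library 1 the markers stood far above libraries 5 and 6, but some Rab genes hardly did. *Rab27a* had 8.28 CPM there against 7.96 CPM in library 5, and *Rab36* had 2.57 against 1.92 CPM in library 6. The part of hormone-producing cells or RNA in the Rab values was not tested. The genotype values of *Rab36* and *Rab27a* had wide errors. *Rab36* had a log2 fold change of 0.44 (SE 1.08 and adjusted p = 0.909 in edgeR), which was -0.77 without library 2 and 2.07 without library 4. *Rab27a* had 0.39 (SE 0.640 and adjusted p = 0.838 in edgeR), and between libraries 5 and 6, where the markers were near 0, it was 0.67. *Rab38*, *Rab20*, *Rab11fip1* and *Rab3il1* did not follow this order. With libraries 2 and 4 left out together their log2 fold changes were -1.16, 0.94, -0.74 and 1.10 (edgeR adjusted p = 0.337, 0.240, 0.242 and 0.342). Libraries 1 and 3, which also hold the pituitary markers, stay in that fit, so it does not remove the markers.

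**Figure D5:**
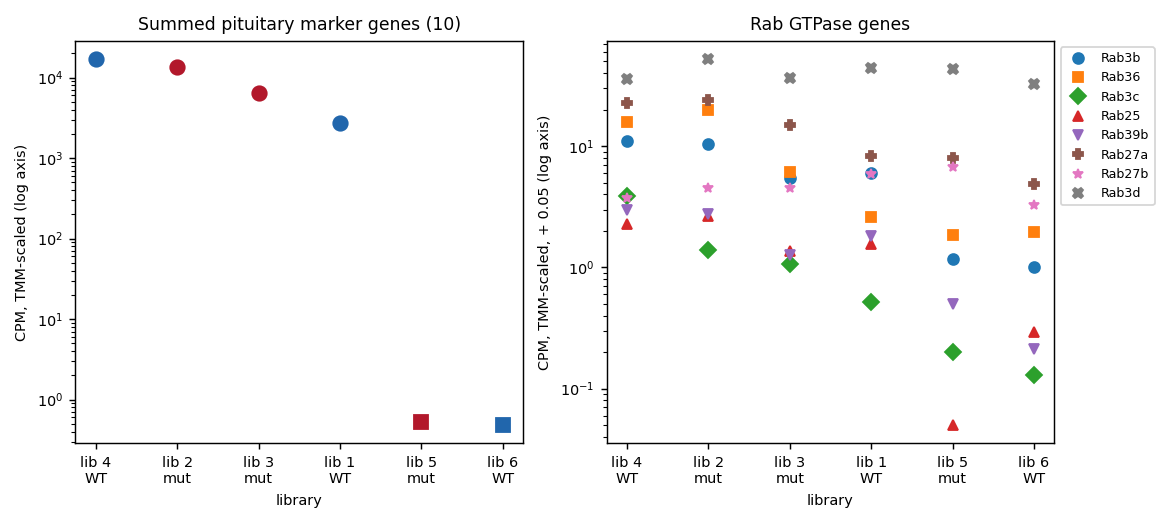
Left, summed CPM of 10 pituitary marker genes (log axis) in each library, blue for wild type and red for mutant, with squares for libraries 5 and 6; right, CPM of 8 Rab GTPase genes (log axis, 0.05 added) in the same order of libraries. *Rab3b*, *Rab36*, *Rab3c*, *Rab25*, *Rab39b* and *Rab27a* are higher in libraries 4 and 2 than in libraries 5 and 6, and *Rab3d* and *Rab27b* do not follow the markers. Other rows low in libraries 5 and 6, such as *Rab10*, *Rab4b* and *Rab17*, are not drawn.

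GTPases of the ER and Golgi were level at high expression. *Rab1a* stood at 432, 345 and 357 CPM in wild-type and at 404, 362 and 396 CPM in mutant libraries (log2 fold change 0.04, 95% interval -0.28 to 0.35). *Rab1b* stood at 202, 180.3 and 193 against 186, 219.7 and 196 CPM (0.07, -0.20 to 0.34). *Rab2a*, *Rab6a* and *Rab18* lay between -0.19 and -0.03. *Rab43*, a Golgi Rab at low level, stood at 4.43, 3.25 and 3.53 against 5.60, 5.91 and 5.06 CPM, without overlap (0.56, SE 0.294, edgeR adjusted p = 0.365). Among Rabs with other roles, *Rab40c*, which joins a ubiquitin ligase, stood at 37.4, 39.0 and 42.2 against 32.8, 31.3 and 29.4 CPM (-0.34, SE 0.102, edgeR adjusted p = 0.144). *Rab19* had the highest log2 fold change of the set, 1.95 (SE 0.647 and adjusted p = 0.171 in edgeR), from counts of 4, 11 and 13 in wild-type and 70, 12 and 42 in mutant libraries. Its CPM were 0.467, 0.852 and 1.04 against 4.90, 1.22 and 3.13, so library 3 lay just above the wild-type range. *Rab19* passed the minimum of 1 CPM in 3 libraries only through the mutant libraries. The minimum thus in part fixed its direction, and its place at the end of the range supports nothing.

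The partner genes that shared the symbol pattern held the other rows past the threshold with the batch term. Of these 10 genes 1 rose and 1 fell, where 3.08% of all genes rose and 5.6% fell. *Rab11fip1* (chromosome 8, 27138773 to 27174646), an effector that couples RAB11 to cargo recycling, stood at 28.1, 33.7 and 28.3 CPM in wild-type and at 14.6, 16.9 and 15.9 CPM in mutant libraries. Every mutant library lay below every wild-type library by a wide margin. The log2 fold change was -0.93 (SE 0.134 and adjusted p = 0.0589 in edgeR), and the adjusted p was 0.0208 in edgeR with the batch term and 0.000108 in DESeq2. Libraries 1 to 4 alone gave -0.97 and library 5 over 6 gave -0.81, and the value stayed between -0.98 and -0.80 when each library was left out. The related effector gene *Rab11fip5* pointed the other way, at 311, 217 and 191 against 397, 348 and 369.7 CPM without overlap (0.63, SE 0.198, edgeR adjusted p = 0.157, and 0.0173 in DESeq2; named after its values were seen).

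*Rab3il1* (chromosome 19, 10001669 to 10038380) encodes an exchange factor of the Rabin family, which activates RAB8. It stood at 136, 78.4 and 58.4 CPM in wild-type and at 232, 207 and 199 CPM in mutant libraries, with no overlap. The log2 fold change was 1.22 (SE 0.307 and adjusted p = 0.113 in edgeR), and the adjusted p was 0.0307 in edgeR with the batch term and 0.00123 in DESeq2. Libraries 1 to 4 alone gave 1.03 and library 5 over 6 gave 1.76. Its relative *Rab3ip*, which also encodes a Rabin exchange factor, stood at 10.4, 15.9 and 17.3 against 14.1, 9.27 and 6.48 CPM, a log2 fold change of -0.55 (SE 0.344 and adjusted p = 0.461 in edgeR). It was -0.86 without library 2, -0.32 without library 5 and -0.17 in libraries 1 to 4 alone. The subunit genes *Rab3gap1* and *Rab3gap2* lay at -0.15 and -0.06. Of the 10 partner genes 2 lay above 0 and 8 below, where 46.8% of all genes lay above 0. The 10 are a small, mixed set taken by symbol, so this count is a description. The antisense RNA *Rab10os* stood at 17.7 to 25.2 CPM and *Rab26os* at 2.23 to 4.08 CPM over the 6 libraries.

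RefSeq promoter windows of build GRCm38.p6, from 250 bases before to 50 after a gene's start, were found for 58 of the 71 members (76 windows). They were searched on both strands for CACGTG (an E-box bound by the MITF and TFEB family of osteoclast and lysosome regulators, the same on both strands), TGANTCA (AP-1), GAGGAAG (PU.1) and TTTCCA (NFAT), with matches of different motifs allowed to overlap. CACGTG was in 13.2% of Rab windows, 9.72% of windows of all genes tested and 7.15% of all windows. The first share counts 2 overlapping windows of *Rab3il1*, and over windows of the GTPase genes above the minimum it was 10.5%. In the same order, TGANTCA was in 3.95%, 5.33% and 7.81%, GAGGAAG in 11.8%, 13.6% and 13.6%, and TTTCCA in 21.1%, 16.9% and 21.4%. The median ratio of observed to expected CpG, the site of DNA methylation, was 0.736 in Rab windows and 0.737 in windows of all genes tested. By this measure Rab promoters were as rich in CpG as those of the genes tested. The motif was not limited to rows that rose with the batch term. It was in windows of *Rab20* and *Rab3il1*, but also in those of *Rab5a*, *Rab21*, *Rab23*, *Rab24*, *Rab27a*, *Rab3gap2* and *Rab10os*, with log2 fold changes of -0.17 to 0.39. *Rab38* and *Rab11fip1* had no window in the table. Windows of *Rab20* and *Rab3il1* are shown as examples with the motif, and those of *Rab7* and *Rab3d* as examples with none of the 4 motifs, chosen with the values known. The *Rab20* window also holds GAGGAAG, outside the bases shown. In *Rab3il1* the motif lies in 2 overlapping windows, at starts inside the gene, and the windows at its other starts do not hold it. Each sequence is 5′ to 3′ on the gene's strand with motif matches in capitals; a match is a description of letters and not a bound site.
Rab20, 30 bases around the match at bases -46 to -41 from the start, chr8:11478669-11478698, minus strand: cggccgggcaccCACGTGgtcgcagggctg
Rab3il1, 1 of 5 windows, matches at -42 to -37 and -15 to -10, chr19:10017944-10018193, plus strand: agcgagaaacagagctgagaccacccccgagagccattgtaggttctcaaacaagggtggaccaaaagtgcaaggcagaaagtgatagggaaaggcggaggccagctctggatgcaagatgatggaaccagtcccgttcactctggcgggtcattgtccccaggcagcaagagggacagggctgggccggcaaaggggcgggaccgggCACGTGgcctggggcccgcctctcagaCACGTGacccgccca
Rab7, 1 of 2 windows, chr6:88045271-88045520, minus strand: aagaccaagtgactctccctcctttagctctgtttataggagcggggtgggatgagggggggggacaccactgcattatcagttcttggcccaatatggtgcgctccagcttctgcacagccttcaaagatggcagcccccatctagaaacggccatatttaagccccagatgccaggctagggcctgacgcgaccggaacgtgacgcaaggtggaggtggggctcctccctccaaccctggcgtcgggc
Rab3d, chr9:21918184-21918433, minus strand: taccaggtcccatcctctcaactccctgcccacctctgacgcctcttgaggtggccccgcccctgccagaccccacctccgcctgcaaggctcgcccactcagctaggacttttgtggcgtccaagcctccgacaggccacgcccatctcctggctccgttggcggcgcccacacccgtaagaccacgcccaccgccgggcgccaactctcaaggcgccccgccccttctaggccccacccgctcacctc

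The machinery around the Rab proteins was taken from 6 lists, without the rows above. Of 136 genes tested, 66 lay above 0 and 70 below (median -0.03, the same as over all genes). In edgeR with genotype only 0 passed, and 40 had an unadjusted p under 0.05 (19.6% of all genes did). With the naming batch as a term 8 rose and 15 fell, where 3.08% of all genes rose and 5.6% fell. The lists were chosen with earlier results of these data known.

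Prenylation and GDI genes, which load Rabs with lipid and extract them from membrane, were mostly level: 1 of 9 fell with the batch term, *Rabggtb*, a subunit of the Rab geranylgeranyl transferase, at 41.2 ± 6.34 against 60.2 ± 14.1 CPM (mutant against wild type, SD, n = 3 each, edgeR adjusted p = 0.0313). Of 31 GEF genes 3 rose and 1 fell with the batch term, where 3.08% of all genes rose and 5.6% fell. *Dennd4b* stood at 84.0 ± 2.89 against 54.8 ± 10.2 CPM and *Dennd1c* at 51.2 ± 10.2 against 33.6 ± 6.58 CPM, both of the DENN family of exchange factors. *Rin2*, an exchange factor of RAB5, fell to 92.3 ± 21.8 from 137.9 ± 28.5 CPM, with overlap between genotypes.

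Of 31 GAP genes 3 rose and 5 fell with the batch term, where 3.08% of all genes rose and 5.6% fell. *Tbc1d9* stood at 89.3 ± 8.53 against 43.7 ± 6.06 CPM, *Sgsm3* at 22.3 ± 1.80 against 41.4 ± 8.52 CPM and *Tbc1d2b* at 221 ± 51.6 against 443 ± 99.8 CPM (SD, n = 3 each), all 3 with TBC domains. Of 38 effector genes 1 rose and 5 fell in the same fit. *Rilpl1*, which binds RAB8 and RAB10, fell to 11.7 ± 3.04 from 24.7 ± 2.94 CPM, *Inpp5b*, a Rab-binding lipid phosphatase, fell to 40.5 ± 5.44 from 70.7 ± 14.4 CPM, and *Rubcn*, which binds RAB7, rose to 65.8 ± 1.04 from 44.7 ± 7.63 CPM. Among 14 genes of the HOPS, CORVET and retromer complexes 1 rose, the CORVET subunit gene *Tgfbrap1*, at 97.95 ± 4.94 against 68.6 ± 14.9 CPM.

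Of 14 genes of ruffled border traffic 3 fell with the batch term and 0 rose, where 5.6% of all genes fell and 3.08% rose. Without overlap between genotypes 5 were lower and 2 higher, where 16.9% and 9.91% of all genes were. The sorting nexin gene *Snx10* stood at 326 ± 127 against 968 ± 346 CPM, *Ostm1* at 105 ± 17.8 against 174 ± 36.8 CPM and *Clcn7*, which encodes the lysosomal chloride transporter that OSTM1 supports, at 314 ± 52.7 against 513 ± 141 CPM. Their edgeR adjusted p-values were 0.108, 0.128 and 0.169 with genotype only and 0.0201, 0.0204 and 0.0327 with the batch term. These 3 are among the 5 that were lower without overlap.

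The 5 GTPase genes below the minimum were *Rab9b*, *Rab26*, *Rab33a*, *Rab37* and *Rab42*, with at most 21 counts in a library. *Rab9b* had 21 counts in library 4, 5 in library 3 and 0 in the others. Exons of 20 of the 71 rows overlap a gene on the other strand in the annotation, among them *Rab7*, *Rab20*, *Rab11fip1*, *Rab40c* and *Rab3b*. Reads of such partners cannot be told apart with certainty, because the strand setting of the authors' counting is not given in the sources used here.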

How the data were processed

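Per the labels' protocols, total RNA of bone marrow-derived osteoclasts was made into stranded mRNA libraries and sequenced in single-end mode. The build mm10 and the tools SAMtools 0.1.19, Bowtie2 2.2.3 and TopHat2 2.0.13 were used, per the submitters' processing notes; the counting program is not given in the sources used here. The authors deposited raw counts per Ensembl gene. Of 23264 rows, 60 repeated a gene and were dropped, leaving 23204. Column names give the genotype but no replicate number, so columns were tied to genotypes only. No library was a repeat of another: chi-square over its degrees of freedom was at least 27.5 between any 2.

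The quasi-likelihood test of edgeR 4.0.16 (R 4.3.3) was run on these counts with TMM scaling and genotype as the only term, after filterByExpr left 14040 genes, with Benjamini-Hochberg adjustment over all of them. Standard errors were obtained by dividing the absolute log2 fold change by the root of F. Alternatives were DESeq2 1.42.0, RLE scaling, 2 other filters, the naming batch as a term, libraries 1 to 4 alone, and each library left out. Exon lengths came from GENCODE M21, in which all 71 rows had the same start and end. Libraries varied by a common biological coefficient of 40.9% (23.5% with the batch term), which limits what 3 libraries per genotype resolve. A two-sided exact permutation test of 3 libraries against 3 cannot go below 0.1.

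Members, lists, roles and alternatives were chosen with earlier results of these data known; pituitary markers and the removal of libraries 2 and 4 were added after seeing the data. Genes were named by a rule: *Rab7*, *Rab3d*, *Rab38*, *Rab32*, *Rab27a*, *Rab5c*, *Rab9*, *Rab11a* and *Rab44*; rows past the threshold in either edgeR fit; up to 8 rises and 8 falls of GTPase genes without overlap; the 5 highest per length; and up to 3 genes of each list. Others were named after their values were seen. Protein sequences were not analysed here.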

Additional observations from a re-analysis of the deposited data

How the results depend on the processing

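No paired analysis was possible because the column names carry no replicate number. Over all genes, 10 passed in edgeR with genotype only; 81 passed with no filter on low counts, 1219 with the naming batch as a term, 1346 in DESeq2, 1 in libraries 1 to 4 alone, 0 without libraries 2 and 4, where 1915 genes had an unadjusted p under 0.05, and 0 to 3 when each library was left out. Of the Rab rows, 0 passed in edgeR with genotype only, with RLE scaling, under either other filter, in libraries 1 to 4 alone, without libraries 2 and 4 and without any single library, with 5 to 12 rows at an unadjusted p under 0.05; 4 passed with the batch term and 6 in DESeq2. Of the 6 lists, 23 of 136 genes passed with the batch term, where 8.68% of all genes did. In DESeq2 21 of the 142 genes fitted passed, where 11.3% of all genes with an adjusted p did. Scaling by CPM of total counts left 66 rows above the minimum. Of 24 Rab rows followed singly, 8 changed sign in some alternative, the largest of them *Rab36* at 0.44. *Rab1a* was -0.018 in libraries 1 to 4 and -0.014 without libraries 2 and 4. *Rab32* was -0.040 without libraries 2 and 4 and -0.0064 between libraries 5 and 6. *Rab36* and *Rab3b* were -0.084 and 0.14 between libraries 5 and 6. Leaving out 1 library gave -0.0053 to 0.15 for *Rab1b*, -0.034 to 1.30 for *Rab27a*, -0.77 to 2.07 for *Rab36*, -0.86 to 0.76 for *Rab3b*, -0.28 to 0.12 for *Rab7* and -0.19 to 0.021 for *Rab9*; the cause was not tested. Depth limits genes near 1 CPM, such as *Rab19*.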
